A study of Homo sapiens with 4 samples.

Results

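ATM, RAD50, NBN, MDC1, ATR, ATRIP, TOPBP1, CHEK1, CHEK2 and WEE1 encode proteins that sense DNA damage and pass the signal to the cell cycle. These 10 genes were taken by name from a table of 58174 annotated genes, and each name matched 1 row. RNA-seq was performed on 2 established human pancreatic cancer cell lines, SW1990 and PANC-1, each either unirradiated or irradiated with X-rays at a dose of 10 Gy. Each combination of line and treatment was sequenced as 1 library (4 libraries in all). SW1990 was grown in 1640 medium and PANC-1 in DMEM, both at passage 14 to 16, so the line and its medium cannot be told apart. The time between irradiation and RNA collection is not given in the sources used here. The deposited counts summed to 17939210 in unirradiated SW1990, 18388969 in irradiated SW1990, 23451153 in unirradiated PANC-1 and 20154644 in irradiated PANC-1 cells. With 1 library per condition, a difference between irradiated and unirradiated cells has no replicate check, and every interval given for such a difference is a 95% interval that covers counting error only.

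DNA double-strand breaks are bound by the complex of MRE11, RAD50 and NBN, which recruits and activates the kinase ATM. Single-stranded DNA coated with RPA brings in the kinase ATR through its partner ATRIP, and TOPBP1 then activates ATR. ATM phosphorylates CHEK2 and ATR phosphorylates CHEK1, and both effector kinases restrain the CDC25 phosphatases, while WEE1 adds the inhibitory phosphate to the cyclin-dependent kinases that CDC25 removes. In tumor cells this network delays cell division after radiation, and much of its control lies in phosphorylation of the proteins, which an RNA measurement does not record.

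The labelled cell type was checked against marker genes first. KRT8, a keratin of ductal epithelium, was at 1352 and 1888 FPKM (fragments relative to the length of the transcript and to all fragments mapped) in SW1990 cells without and with radiation, and at 786 and 851 FPKM in PANC-1 cells. KRT18 was between 468 and 1062 FPKM and KRT19 between 146 and 306 FPKM over the 4 libraries. The epithelial adhesion genes EPCAM (217 and 218 FPKM) and CDH1 (140 and 239 FPKM) were abundant in SW1990 cells only. In PANC-1 cells EPCAM was at 2.28 and 2.81 FPKM and CDH1 at 0.673 and 1.21 FPKM. VIM, the mesenchymal intermediate filament gene, was at 1627 and 1650 FPKM in PANC-1 cells, and it had 17 and 0 counts in SW1990 cells. ZEB1, a mesenchymal transcription factor, was at 17.4 FPKM in both PANC-1 libraries and at 0.314 and 1.33 FPKM in SW1990 cells, and CDH2 was at 2.79 and 2.92 against 0 and 0.0412 FPKM. Both lines thus carried ductal keratins and PANC-1 also carried mesenchymal genes. Of the other cell types, DCN (fibroblast) and CPA1 (acinar) had 0 counts in all 4 libraries, LUM, PTPRC and PECAM1 had at most 2 counts, CDH5 at most 8 and PRSS1 at most 12. CD68 (31, 37, 967 and 583 counts) and COL1A1 (103, 165, 965 and 1315 counts, in the same order of libraries) were the exceptions and both were more abundant in PANC-1 cells.

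Of the 10 genes, 8 were matched to a promoter in the RefSeq table (GRCh38.p14), which gives 250 bases before and 50 bases after a gene's start. A set of 3 is shown here, CHEK1 and CHEK2 because they are the effector kinases of the ATR and ATM branches, and TOPBP1 because it had the highest mean level of the 10 and was the 1 gene among the 8 with an E2F motif. Each line gives 109 bases before the start and the first transcribed base, on the strand of the gene. Capitals mark GGGCGG (the SP1 motif), CCAAT (the NF-Y motif, which reads ATTGG on the other strand) and TTTCGCGC (an E2F motif, which reads GCGCGAAA on the other strand).
CHEK1: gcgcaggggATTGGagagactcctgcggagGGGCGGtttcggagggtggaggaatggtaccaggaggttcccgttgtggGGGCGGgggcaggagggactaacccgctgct
CHEK2: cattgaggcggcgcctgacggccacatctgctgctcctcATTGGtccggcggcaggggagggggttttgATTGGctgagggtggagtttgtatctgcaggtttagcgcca
TOPBP1: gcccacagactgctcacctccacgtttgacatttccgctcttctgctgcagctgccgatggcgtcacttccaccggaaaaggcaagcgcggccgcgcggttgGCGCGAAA
The CHEK1 stretch lies at chr11:125626115-125626224 on the plus strand, the CHEK2 stretch at chr22:28741820-28741929 on the minus strand and the TOPBP1 stretch at chr3:133661941-133662050 on the minus strand. The CHEK1 window of 300 bases held 3 SP1 and 1 NF-Y motifs, and the CHEK2 window held 1 SP1 and 3 NF-Y motifs. TOPBP1 held 2 SP1 motifs outside the bases shown and the E2F motif at its start. Over both strands of all 35116 promoters in the table, GGGCGG was found in 45% and CCAAT in 34.6%, while TTTCGCGC was found in 0.515%. The second E2F motif searched, TTTGGCGC (0.652% of all promoters), was in none of the 8 windows. TTTGAA, the core of the CHR element of genes expressed late in the cell cycle, is in 15.2% of all promoters and was in those of ATM and MDC1. These are matches of letters, and binding was not measured.

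All 10 genes were expressed in every library. Their median was 20.6 FPKM in unirradiated SW1990, 20.1 in irradiated SW1990, 20 in unirradiated PANC-1 and 21.1 in irradiated PANC-1 cells, compared with medians of 9.37, 9.13, 8.84 and 8.9 FPKM over the genes that reached 1 FPKM in the same libraries. Per length, TOPBP1 was the most abundant member in 3 libraries (44.6, 49.4 and 47.7 FPKM). In irradiated PANC-1 cells ATM came first with 50 FPKM, next to TOPBP1 with 48.9. ATRIP was the least abundant in 3 libraries (7.31, 4.25 and 4.32 FPKM), and in irradiated SW1990 cells it lay at 12 FPKM beside WEE1 at 11.9. The range between the highest and lowest member was 6.11-fold and 4.17-fold in SW1990 and 11.2-fold and 11.6-fold in PANC-1 cells, unirradiated and irradiated. Between these ends the order differed by line. CHEK1 stood second in both SW1990 libraries, while ATM stood second and first in PANC-1. WEE1 ranked 8 and 10 in SW1990 and 5 and 3 in PANC-1.

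The question for each line was whether irradiation was accompanied by other transcript levels of these genes. After the study's methods, a gene was called when its counts differed at a q-value below 0.001 and by more than 2-fold. None of the 10 genes was called in SW1990, where 650 of 15731 tested genes were (4.13%). None was called in PANC-1, where 713 of 15159 were (4.70%). At a 1.5-fold limit, RAD50 in SW1990 was the single call (9.26% of all tested genes), and PANC-1 had none (11.7%). The median log2 fold change of the 10 genes, from counts, was 0.01 in SW1990 and -0.02 in PANC-1, against -0.01 and -0.02 over all tested genes. The median size of their log2 changes, regardless of sign, was 0.19 in SW1990 and 0.08 in PANC-1, against 0.24 and 0.27 over all tested genes. Counting error alone was small for these genes, and their intervals excluded 0 for 9 of 10 genes in SW1990 and 5 of 10 in PANC-1, as did those of 48.7% and 56.5% of all tested genes. Such an interval separates 2 libraries and not 2 treatments.

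**Figure D1:**
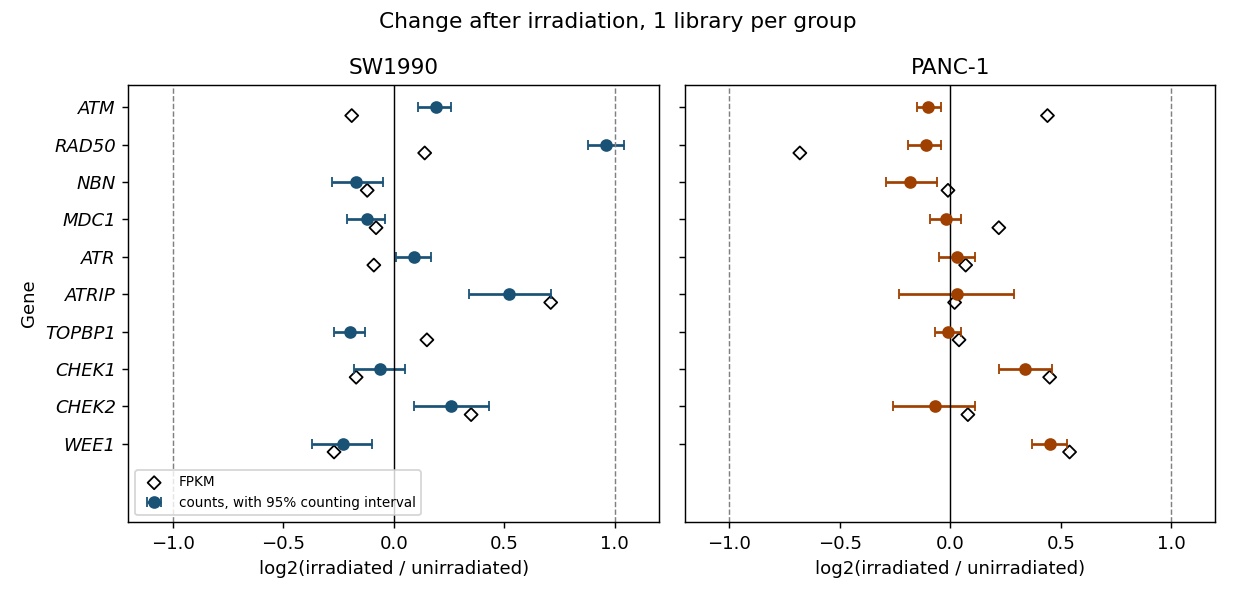
Log2 ratio of irradiated to unirradiated cells for each gene in SW1990 (left) and PANC-1 (right), with filled circles and bars for counts with their 95% counting intervals, open diamonds for FPKM and dashed lines at a 2-fold difference. Every point lies inside the dashed lines, RAD50 in SW1990 is nearest to them at 0.96 from counts, and ATM lies on opposite sides of 0 by counts and by FPKM in both lines.

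Of the genes of the double-strand break branch, ATM (chr11:108222484-108369102, plus strand) had 2524 counts without and 2885 with radiation in SW1990, and 5521 and 4715 counts in PANC-1 cells. Scaled to library size, its log2 fold change was 0.19 (0.11 to 0.26) in SW1990 and -0.10 (-0.15 to -0.04) in PANC-1. By FPKM the signs were the other way round, with 26.8 and 23.4 FPKM in SW1990 (log2 fold change -0.19) and 36.9 and 50 FPKM in PANC-1 (0.44). The direction of ATM after irradiation was therefore not settled in either line. The gap between both measures was 0.53 for ATM in PANC-1, and 4.15% of genes with at least 100 counts in each library had a larger one. NPAT, the histone gene activator that is transcribed from the opposite strand next to ATM, shares 0.597% of the exonic bases of ATM in GENCODE 29, and had 860, 1000, 1513 and 1182 counts over the same 4 libraries.

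RAD50 (chr5:132556019-132646344, plus strand), the coiled-coil ATPase of the MRE11 complex, had 1819 counts without and 3557 with radiation in SW1990. This was a 1.95-fold difference (log2 fold change 0.96, 0.88 to 1.04), and 10.3% of all tested genes had a larger change in either direction. In PANC-1 cells RAD50 had 3200 and 2700 counts, a log2 fold change of -0.11 (-0.19 to -0.04). The FPKM of RAD50 were 22.1 and 24.3 in SW1990 (0.14) and 27.5 and 17.1 in PANC-1 (-0.68), so that neither measure placed RAD50 more than 2-fold apart and they disagreed on the line with the larger difference.

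The table holds a second gene on the same strand, AC116366.3 (chr5:132410832-132646079), whose annotated exons in GENCODE 29 cover 79.7% of the exonic bases of RAD50. AC116366.3 had 1448 counts without and 286 counts with radiation in SW1990 (log2 fold change -2.35, -2.53 to -2.16). In PANC-1 cells it had 331 and 236. Of the reads given to either gene, AC116366.3 took 44.3% and 7.44% in SW1990 and 9.37% and 8.04% in PANC-1 cells. Only the unirradiated SW1990 library thus gave a large share to the overlapping gene. With both genes added up, the counts were 3267 and 3843 in SW1990, a log2 fold change of 0.23 (0.16 to 0.30), and 3531 and 2936 in PANC-1 (-0.14, -0.21 to -0.06). Reads from the shared exons cannot be assigned to 1 of the 2 genes, and the value of RAD50 alone in SW1990 is uncertain for this reason.

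ATRIP (chr3:48446710-48465716, plus strand) likewise overlaps a gene on its own strand, AC134772.2 (chr3:48446846-48467645), by position. ATRIP had 403 and 582 counts in SW1990, a 1.44-fold difference (log2 fold change 0.52, 0.34 to 0.71), and AC134772.2 had 130 and 27. In PANC-1 cells ATRIP had 258 and 240 counts (0.03, -0.23 to 0.29) and AC134772.2 had 50 and 23. With both added up, the log2 fold change was 0.19 (0.02 to 0.36) in SW1990 and -0.10 (-0.34 to 0.14) in PANC-1. In SW1990 both overlapping genes had lower counts in the irradiated library, while the member they overlap had higher counts.

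**Figure D2:**
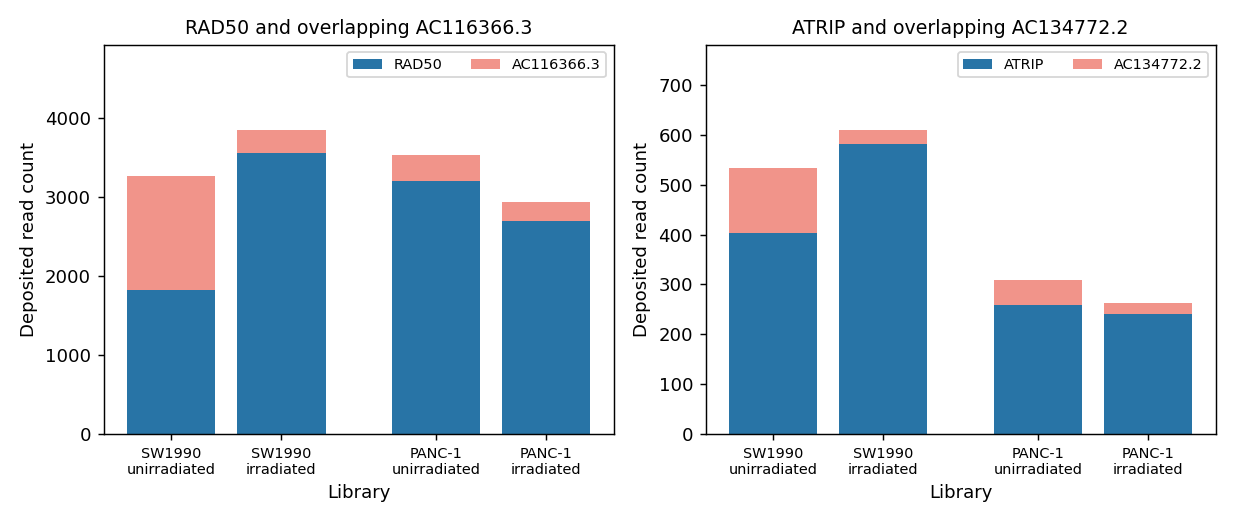
Deposited read counts, not scaled to library size, of RAD50 with AC116366.3 (left) and of ATRIP with AC134772.2 (right), stacked in each of the 4 libraries. The overlapping gene takes 44.3% and 24.4% of the stack in unirradiated SW1990 cells and 7.44% and 4.43% in irradiated SW1990 cells.

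NBN (chr8:89933336-90003228, minus strand), the subunit of the MRE11 complex that contacts ATM, had 1335 and 1194 counts in SW1990 and 1369 and 1107 in PANC-1 cells. Its log2 fold changes were alike in both lines, at -0.17 (-0.28 to -0.05) and -0.18 (-0.29 to -0.06). By FPKM it was at 16.3 and 15 in SW1990 and at 12.1 and 12 in PANC-1 cells. NBN was the only member whose interval lay below 0 in both lines by counts scaled with TMM, although with total-count scaling its PANC-1 value was -0.09 (-0.20 to 0.03). With TMM the difference between the lines was 0.01 (-0.15 to 0.17). MDC1 (chr6:30699807-30717889, minus strand), the mediator that binds phosphorylated H2AX and holds ATM at the break, had 2315 and 2133 counts in SW1990 (-0.12, -0.21 to -0.04) and 3200 and 2886 in PANC-1 cells (-0.02, -0.09 to 0.05). Its FPKM were 23.5, 22.2, 22.6 and 26.4 in the same order, the narrowest range after TOPBP1 as a ratio of the highest to the lowest library.

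In the ATR branch, ATR itself (chr3:142449235-142578826, minus strand) had 2532 and 2713 counts in SW1990 and 2690 and 2515 in PANC-1 cells. The log2 fold changes were 0.09 (0.01 to 0.17) and 0.03 (-0.05 to 0.11), and FPKM gave -0.09 and 0.07. TOPBP1 (chr3:133598175-133661893, minus strand) had 3506 and 3071 counts in SW1990 (-0.20, -0.27 to -0.13) and 4550 and 4122 in PANC-1 cells (-0.01, -0.07 to 0.05). Its FPKM in SW1990 were 44.6 and 49.4 (0.15), the opposite sign to its counts. Neither ATR nor TOPBP1 was more than 0.20 from 0 on the log2 scale in either line.

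The effector kinases lay farther apart between the lines than ATR and TOPBP1. CHEK1 (chr11:125625136-125676255, plus strand), which acts mainly downstream of ATR, had 1193 and 1146 counts in SW1990 and 1020 and 1179 in PANC-1 cells. The log2 fold change was -0.06 (-0.18 to 0.05) in SW1990 and 0.34 (0.22 to 0.46) in PANC-1, with -0.17 and 0.45 from FPKM. CHEK2 (chr22:28687743-28742422, minus strand), the substrate of ATM, had 511 and 615 counts in SW1990 (0.26, 0.09 to 0.43) and 522 and 454 in PANC-1 cells (-0.07, -0.26 to 0.11). CHEK2 has near-identical pseudogene copies, so that its counts are uncertain, and CHEK2P2, CHEK2P3, CHEK2P4 and CHEK2P5 were listed at 0 counts in all 4 libraries. In each line 1 of the pair had an interval that excluded 0, CHEK2 in SW1990 and CHEK1 in PANC-1, and both differences were below 1.5-fold.

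WEE1 (chr11:9573681-9593457, plus strand), the kinase that holds CDK1 inactive, had 949 and 811 counts in SW1990 and 2046 and 2553 in PANC-1 cells. Its log2 fold change was -0.23 (-0.37 to -0.10) in SW1990 and 0.45 (0.37 to 0.53) in PANC-1, the largest of the 10 genes in PANC-1 by counts (by FPKM, RAD50 lay farther from 0 at -0.68). FPKM gave the same directions, with 14.3 and 11.9 in SW1990 (-0.27) and 21.7 and 31.6 in PANC-1 cells (0.54). In PANC-1, 30% of all tested genes had a larger change than WEE1, and in SW1990 50.8% did. No gene with more than 10 counts overlaps WEE1 in the table.

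The difference in log2 fold change, SW1990 minus PANC-1, was 1.08 (0.97 to 1.19) for RAD50, 0.50 (0.18 to 0.81) for ATRIP, 0.33 (0.08 to 0.58) for CHEK2 and 0.28 (0.19 to 0.38) for ATM. It was -0.68 (-0.84 to -0.52) for WEE1, -0.40 (-0.57 to -0.24) for CHEK1 and -0.19 (-0.28 to -0.09) for TOPBP1. With the reads of the overlapping genes added, it was 0.36 for RAD50 and 0.28 for ATRIP. For ATR, NBN and MDC1 the interval contained 0. By FPKM the difference had the opposite sign for ATM (-0.63) and TOPBP1 (0.11), and the same sign for the other 5, with -0.81 for WEE1 and -0.63 for CHEK1. With 1 library in each cell of the design, the spread between replicates that these differences would have to exceed was not measured.

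All 4 libraries were also entered into 1 edgeR quasi-likelihood fit with line and treatment as terms, in which the spread is how far the lines differ in their response to radiation (1 residual degree of freedom). For radiation over both lines, no gene of 18180 passed an adjusted p of 0.05 (0% called), and none of the 10 was among the 833 genes with an unadjusted p below 0.05 (4.58%). By DESeq2 39 genes passed and by limma 1, and again none of the 10. The smallest unadjusted p among the 10 genes in the edgeR fit was 0.20, for RAD50, with an adjusted p of 0.94.

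The level of 3 members differed between the lines beyond the spread in that fit, which called 7921 of 18180 genes (43.6%). The fit takes the unirradiated and irradiated library of each line as its replicates. Its p-values therefore compare these libraries and not independent cultures of a line. WEE1 had 49.4 and 42.8 CPM (counts relative to library size, after TMM scaling of the 4 libraries) in unirradiated and irradiated SW1990 and 95.5 and 130 in PANC-1 cells. PANC-1 was thus 1.93-fold higher without and 3.04-fold higher with radiation (log2 SW1990 over PANC-1 -1.27, edgeR adjusted p = 0.011). ATM had 131 and 152 CPM in SW1990 and 258 and 241 in PANC-1 cells (-0.81, edgeR adjusted p = 0.014). ATRIP had 21 and 30.7 CPM in SW1990 and 12 and 12.3 CPM in PANC-1 cells, 1.74-fold and 2.51-fold higher in SW1990 (1.07, edgeR adjusted p = 0.022). For all 3 genes neither library of 1 line overlapped those of the other. The 3 genes were picked by the fit of these same libraries, so the lack of overlap adds no support. The share of all genes for which it holds was not determined. DESeq2 gave adjusted p-values of 0.00038 for WEE1, 0.00013 for ATM and 0.039 for ATRIP, and limma on log2(FPKM + 1) gave 0.014, 0.019 and 0.018. Of the members 3 of 10 were called, beside 43.6% of all genes, and no result about the members is read from this.

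The other 7 members did not pass the fit. MDC1 (-0.34, edgeR adjusted p = 0.10) and TOPBP1 (-0.29, adjusted p = 0.15) had lower scaled counts in both SW1990 libraries than in both PANC-1 libraries, which FPKM did not show for either gene. CHEK2 (0.31, edgeR adjusted p = 0.25), CHEK1 (0.20, 0.39) and ATR (0.12, 0.52) had higher scaled counts in both SW1990 libraries. For CHEK1 these were 62.1 and 60.5 CPM in SW1990 and 47.6 and 60.2 CPM in PANC-1 cells. The share of all genes whose libraries separate by line was not determined, so no result about the members is read from this. For NBN (0.14, edgeR adjusted p = 0.46) the lines overlapped by scaled counts. These were 69.5 and 63.1 CPM in SW1990 and 63.9 and 56.5 CPM in PANC-1 cells. By FPKM, NBN was higher in both SW1990 libraries (16.3 and 15 against 12.1 and 12). For RAD50 counted alone, the log2 ratio of SW1990 over PANC-1 was -0.66 in unirradiated and 0.45 in irradiated cells. With the reads of AC116366.3 added, it was 0.05 and 0.44 (170 against 165 CPM and 203 against 150 CPM), and the order of the lines no longer turned. CHEK1 stood at 0.38 in unirradiated and 0.01 in irradiated cells.

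**Figure D3:**
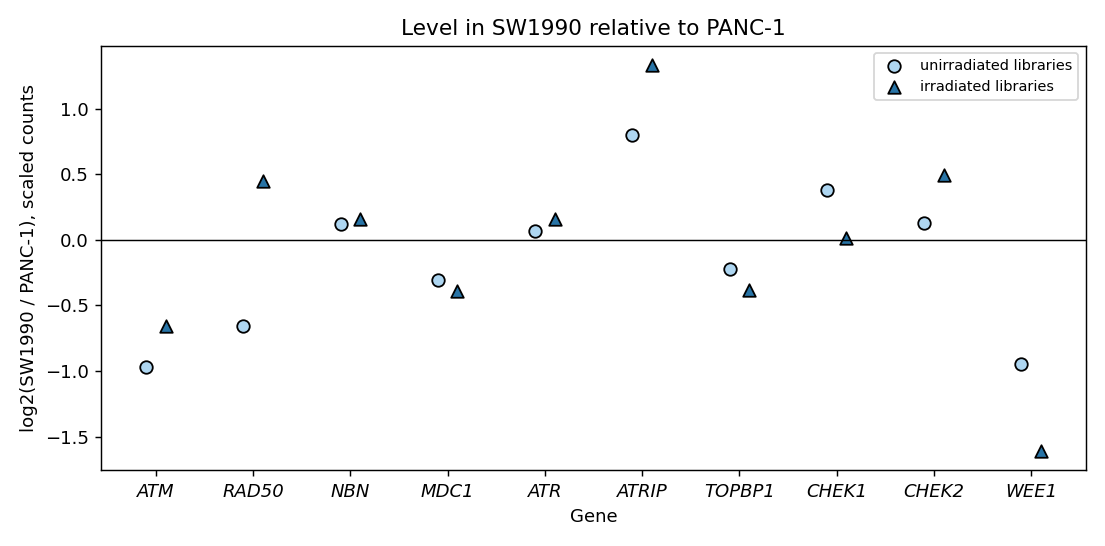
Log2 ratio of SW1990 to PANC-1 for each gene, from counts scaled by TMM, where circles compare the unirradiated and triangles the irradiated libraries, 1 library per line in each. WEE1 (-0.95 and -1.61) and ATM (-0.97 and -0.66) lie below 0 and ATRIP (0.80 and 1.33) above it in both, while RAD50, counted without the overlapping gene, lies on both sides.

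The rest of the checkpoint pathway was read from a list of 53 further genes, all of which were tested in both lines. In SW1990, CDKN1A alone was called, and in PANC-1 none was (4.13% and 4.70% of all tested genes). CDKN1A, the p53-induced inhibitor of cyclin-dependent kinases, rose from 1229 to 4002 counts in SW1990 (log2 fold change 1.70, 1.60 to 1.79). In PANC-1 cells it had 1282 and 782 counts, a log2 fold change of -0.58 (-0.71 to -0.45), which did not reach the limit. With an assumed coefficient of variation between replicates of 0.2 or 0.4, CDKN1A was no longer called in SW1990. The median log2 fold change of the 53 genes was -0.02 in SW1990 and 0.03 in PANC-1.

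As background for the splits below, 49.3% of all tested genes were higher in the irradiated SW1990 library and 48.3% in the irradiated PANC-1 library. Of 12 other sensors, 4 were higher and 8 lower in irradiated SW1990 cells (median -0.10), and 8 were higher and 4 lower in PANC-1 (0.16). PRKDC, the catalytic subunit of DNA-PK and the most abundant of them with H2AFX, had log2 fold changes of 0.09 and 0.04 from counts but 0.57 and 0.97 from FPKM. H2AFX, which encodes the histone phosphorylated by ATM at breaks, was at 99.9 and 94.5 FPKM in SW1990 and at 53 and 71 FPKM in PANC-1 cells. Of 11 other mediators, 3 were higher and 8 lower in SW1990 (-0.13), and 5 and 6 in PANC-1 (-0.02). UIMC1 and BABAM1, subunits of the BRCA1-A complex that reads ubiquitin at breaks, had log2 fold changes of -0.19 and 0.17 in SW1990 and -0.15 and 0.45 in PANC-1. None of these sensors and mediators was called in either line.

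Of 8 partners of the kinase family of ATM and ATR, 4 were higher and 4 lower in SW1990 (0.01), and 2 and 6 in PANC-1 (-0.17). RUVBL2, an ATPase of the complex that folds these kinases, had log2 fold changes of 0.09 and -0.15, and SMG1, the family member of nonsense-mediated decay, -0.02 and -0.22. Of 14 other effectors, 10 were higher and 4 lower in each line (medians 0.10 and 0.11). TRIM28, a chromatin repressor phosphorylated by ATM, had -0.08 and 0.15, and CDC25B, a phosphatase that opposes WEE1, had 0.05 and -0.20. CDC25B differed between the lines, with 71.6 and 82.7 FPKM in SW1990 and 166 and 171 FPKM in PANC-1 cells (log2 SW1990 over PANC-1 -1.31, edgeR adjusted p = 0.0038). The related phosphatases, named after their values were seen, did not share 1 direction. CDC25A was higher in SW1990 (0.92, edgeR adjusted p = 0.0098) while CDC25C had a log2 SW1990 over PANC-1 of -0.62 that passed in edgeR (adjusted p = 0.041) and not in DESeq2 (0.15) or limma (0.13).

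Of 8 phosphatases and genes of the p53 feedback, CDKN1A included, 4 were higher and 4 lower in each line (medians 0.04 and -0.03). PPP4C, the catalytic subunit of the phosphatase that removes phosphate from H2AX, had log2 fold changes of -0.09 and 0.11. MDM2, the ubiquitin ligase of p53, had 4522 and 7373 counts in SW1990 (0.70, 0.64 to 0.75) and 3070 and 3273 in PANC-1 cells (0.22, 0.15 to 0.29), below the 2-fold limit in both.

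Targets of p53, which ATM and CHEK2 phosphorylate, had a higher median log2 fold change in SW1990 than the members (0.64 against 0.01). The ranges overlapped (0.01 to 3.36 against -0.23 to 0.96), and the difference was not tested. Of 23 tested p53 targets, all 23 were higher in the irradiated SW1990 library (median log2 fold change 0.64), as were 49.3% of all tested genes. BBC3, BTG2, PLK2, SPATA18 and TP53INP1 were called there, which made 5 of 23 against 4.13% of all tested genes, and 4 of them are named because they were called. BTG2 (0.878 and 8.62 FPKM) and TP53INP1 (0.47 and 1.05 FPKM) passed the filter of 1 FPKM only through the irradiated library, so that their direction was fixed by the filter. Among the 21 targets with at least 1 FPKM in both libraries, 21 were higher by counts and 20 by FPKM (medians 0.55 and 0.57). Of these 21 targets, 3 were called. The shares of 49.3% and 4.13% are for genes with 1 FPKM in either library, and none was determined for this stricter set. In PANC-1, 6 of 19 were higher and 13 lower by counts (median -0.14), whereas 11 were higher and 8 lower by FPKM (median 0.07), and SESN2 alone was called, 1 of 19 against 4.70% of all tested genes. SESN2, a stress-induced regulator of mTORC1, had 365 and 642 counts in SW1990 (0.81) and fell from 5732 to 1313 in PANC-1 cells (-2.00). BBC3, a proapoptotic BCL2 family gene, rose from 106 to 239 counts in SW1990 (1.17) and had 122 and 65 counts in PANC-1 cells (-0.78).

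None of the 25 S phase or 25 G2/M genes was called in either line at 2-fold, against 4.13% and 4.70% of all tested genes. At 1.5-fold, 2 S phase genes passed in each line, and 0 and 2 G2/M genes in SW1990 and PANC-1, against 9.26% and 11.7%. The S phase genes had 9 higher and 16 lower in SW1990 (median -0.12) and 20 higher and 5 lower in PANC-1 (0.18). Of all tested genes, 49.3% and 48.3% were higher. These splits use TMM scaling, and total-count scaling moved the median of all tested genes in PANC-1 from -0.02 to 0.07. UNG, the uracil DNA glycosylase, had 529 and 1004 counts in SW1990 (0.92) and 786 and 377 in PANC-1 cells (-0.93), and RFC4, a clamp loader subunit, had log2 fold changes of -0.77 and -0.27. The G2/M genes had 17 higher and 8 lower in SW1990 (0.12) and 14 and 11 in PANC-1 (0.11). BIRC5, the survivin gene, had 0.48 and 0.74, and NUSAP1, a spindle protein gene, had -0.40 and -0.66. Whether the share of cells in each phase bears on the levels of CHEK1 and WEE1 was not tested, and in bulk RNA fewer cells with a transcript and less of it per cell cannot be told apart.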

How the data were processed

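RNA of 2 lines was sequenced, 1 library per condition. The submitters' processing notes name Trimmomatic 0.36, HISAT2 2.0 and StringTie 1.3.3b, used by the authors for trimming, alignment and expression values. They deposited for each gene a read count, not normalized, and an FPKM value, scaled to transcript length and mapped fragments. The tool that made the counts and whether it used strand are not given in the sources used here. The sample records describe rRNA depletion and an mRNA library kit. Coordinates are GRCh38.

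Of 59263 rows, 1089 name no gene (0.453% to 0.635% of counts) and were left out, and 27 names turned into dates were restored. Within a line, counts were compared with edgeR 4.0.16 (R 4.3.3; exactTest at dispersion 0, which compares libraries and not conditions, TMM scaling on all named genes, Benjamini-Hochberg adjustment) where FPKM reached 1 in either library, with 0 set to 0.01. Fold changes carry Clopper-Pearson intervals of the read split, and differences between lines use normal intervals of log counts. The study's methods name DESeq2 for this step, which cannot estimate a spread from 1 library per condition. The 4 libraries were fitted with edgeR's quasi-likelihood test, and DESeq2 1.42.0 and limma 3.58.1 were alternatives. The test code was checked on simulated data. All members, pathway genes called or with the 2 highest mean FPKM per role, the 2 genes of each target list with the largest mean change and all markers are named. Members and lists were chosen with earlier results of these data known.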

Additional observations from a re-analysis of the deposited data

Results flagged for a closer look

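A count interval excluded 0 for 48.7% of all tested genes in SW1990 and 56.5% in PANC-1. The share with intervals on opposite sides of 0 in the lines was not determined. Of the 10 genes, 3 had count intervals on opposite sides of 0 in the lines. With total-count scaling WEE1 still did, TOPBP1 did as well (-0.30 to -0.16 in SW1990 and 0.02 to 0.14 in PANC-1), and the PANC-1 intervals of ATM (-0.06 to 0.05) and RAD50 (-0.10 to 0.05) contained 0. For RAD50 the log2 fold change was 1.08 higher in SW1990 than in PANC-1, and 0.36 higher once the reads of AC116366.3 were added. For WEE1 the log2 fold change was lower in SW1990 by a difference of -0.68, in the same direction by FPKM. For ATM the difference was 0.28 from counts and -0.63 from FPKM. With 1 library per condition these differences were compared with counting error only and not tested against replicates.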

How the results depend on the processing

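No member's fold change passed the 2-fold limit under total-count or DESeq2 scaling, FPKM or an assumed coefficient of variation of 0.2 or 0.4. The same held for a binomial test on the counts as deposited and with unnamed rows kept in. A 1.5-fold limit gave 1 member in SW1990. From FPKM, the log2 fold change reversed to -0.19 for ATM, -0.09 for ATR and 0.15 for TOPBP1 in SW1990, and to 0.44 for ATM, 0.08 for CHEK2, 0.22 for MDC1 and 0.04 for TOPBP1 in PANC-1, and the members' median moved to -0.08 and 0.07. Total-count scaling in PANC-1 gave 0.02 for CHEK2, 0.07 for MDC1 and 0.08 for TOPBP1, a members' median of 0.07, and 61.7% of calls higher in place of 50.1%. Adding the overlapping gene took ATRIP in PANC-1 to -0.10. The causes were not tested.

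Of the pathway genes, 0 were called in SW1990 at either assumed variation, and a 1.5-fold limit gave 3 in SW1990 (CDKN1A, MDM2 and MDM4) and 2 in PANC-1 (TELO2 and TLK2), named because they passed. Over all genes, SW1990 had 99 calls at a variation of 0.2, 15 at 0.4, 305 at an FPKM of 5 and 1456 at 1.5-fold, and PANC-1 had 103, 10, 318 and 1777. For radiation over both lines, DESeq2 called 39 genes and limma 1. The fit of all 4 libraries has line as a term and so pairs the treatments within each line. It could not be run within 1 line, which has no replicates. Summed reads, unnamed loci, the binomial test and the p53 targets by FPKM or above 1 FPKM in both libraries were chosen after seeing the data. Each member had at least 240 counts in every library, and the spread between replicates was not measured.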
